A study of Mus musculus with 6 samples.

Results

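The CXC chemokine ligands are the small secreted proteins encoded by Cxcl1, Cxcl2, Cxcl5, Cxcl9, Cxcl10, Cxcl11, Cxcl12, Cxcl13, Cxcl14 and Cxcl16. They were chosen by gene name, as every probe of these 10 genes on the array that is not a control, and they made up 15 of 56605 probes. Whole kidneys came from female mice at 6 months of age, 3 of the strain MRL/MpJ (MRL mice) and 3 of the strain MRL/MpJ-Fas lpr/lpr (LPR mice). Both groups share the MRL/MpJ background. LPR mice are homozygous for lpr, a mutation that disrupts the death receptor gene Fas, and they serve as a lupus model with lymphoid tissue around the kidney vessels. The labels name no treatment, and each mouse gave 1 array. The comparison asks which CXC ligand transcripts differ between diseased and control kidneys.

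Chemokines draw leukocytes along a gradient through receptors that couple to G proteins. Within the CXC family, ligands with an ELR motif before the first cysteines act mainly on neutrophils through Cxcr2, the interferon-induced ligands act on T cells and natural killer cells through Cxcr3, and the homeostatic ligands place lymphocytes and precursor cells in tissues. In lymphoid follicles, Cxcl13 guides B cells that carry Cxcr5.

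The sequences below show the region just upstream of 5 of these genes, chosen because Cxcl9, Cxcl10 and Cxcl13 had the largest changes and because Cxcl1 and Cxcl2 stand for the neutrophil-attracting genes. Each is the run of 250 bases before the annotated start in RefSeq on GRCm38.p6, in the direction of transcription, at chr5:92328080-92328329 on the minus strand for Cxcl9, chr5:92348890-92349139 on the minus strand for Cxcl10, chr5:95956689-95956938 on the plus strand for Cxcl13, chr5:90890995-90891244 on the plus strand for Cxcl1 and chr5:90903649-90903898 on the plus strand for Cxcl2. Capitals mark matches to the motifs named in the next paragraph.
Cxcl9: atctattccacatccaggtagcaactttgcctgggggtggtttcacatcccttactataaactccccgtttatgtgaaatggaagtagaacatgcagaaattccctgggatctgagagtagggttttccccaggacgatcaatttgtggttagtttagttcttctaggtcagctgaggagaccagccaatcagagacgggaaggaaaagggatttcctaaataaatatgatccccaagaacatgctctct
Cxcl10: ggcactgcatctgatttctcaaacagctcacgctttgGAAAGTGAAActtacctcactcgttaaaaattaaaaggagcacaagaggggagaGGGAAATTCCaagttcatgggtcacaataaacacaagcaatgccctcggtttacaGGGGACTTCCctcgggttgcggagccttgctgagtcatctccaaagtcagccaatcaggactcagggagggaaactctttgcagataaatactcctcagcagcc
Cxcl13: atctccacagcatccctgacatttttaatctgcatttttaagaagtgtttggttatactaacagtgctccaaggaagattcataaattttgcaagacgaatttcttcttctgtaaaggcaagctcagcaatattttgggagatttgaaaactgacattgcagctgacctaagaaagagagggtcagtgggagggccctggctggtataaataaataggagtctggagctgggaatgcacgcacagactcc
Cxcl1: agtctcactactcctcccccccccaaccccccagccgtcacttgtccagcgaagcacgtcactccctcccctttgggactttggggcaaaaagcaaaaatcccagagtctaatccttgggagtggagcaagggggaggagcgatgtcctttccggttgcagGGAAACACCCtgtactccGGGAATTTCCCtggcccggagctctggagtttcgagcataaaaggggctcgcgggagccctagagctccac
Cxcl2: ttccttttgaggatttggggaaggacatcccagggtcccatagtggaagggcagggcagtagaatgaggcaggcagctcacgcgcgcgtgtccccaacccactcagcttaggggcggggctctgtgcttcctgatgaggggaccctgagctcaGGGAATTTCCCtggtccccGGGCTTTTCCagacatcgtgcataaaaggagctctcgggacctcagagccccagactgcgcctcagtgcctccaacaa

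Of the 10 genes, 7 had an entry in this promoter table (Cxcl1, Cxcl2, Cxcl9, Cxcl10, Cxcl12, Cxcl13 and Cxcl14). Both strands of each window were searched for an interferon gamma-activated site (GAS, TTC and GAA with any 3 bases between), an interferon-stimulated response element (ISRE, GAAA and GAAA with any 2 bases between) and an NF-kB site (GGG and TTCC with any 3 bases between). Over all 32851 promoter windows of this length, 7.02% held the GAS letters, 2.98% the ISRE letters and 4.65% the NF-kB letters. The Cxcl10 window held 1 ISRE match, with its first base 213 bases before the start, and NF-kB matches at 159 and 104 bases. The Cxcl1 window held NF-kB matches at 89, 71 and 70 bases, of which the last pair overlap on opposite strands. Those of Cxcl2 lay at 97, 96 and 78 bases, and here the first pair overlap. The Cxcl14 window held 1 GAS match at 191 bases and 1 ISRE match at 172 bases. These letters were not found in the windows of Cxcl9, Cxcl12 and Cxcl13. Only exact matches within each window were sought, so other forms of these sites, or sites further away, would not have been counted.

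The array intensities are given on a log2 scale relative to the 75th percentile of each array, so that a value of 0 lies at that percentile. A level of one probe cannot be set against that of another probe. Changes are LPR minus MRL, fitted with limma on 39924 probes whose signal was well above background on 3 or more arrays, with Benjamini-Hochberg adjustment and a threshold of 0.05. The median change of all tested probes was -0.14. The 75th percentile of intensity ranged from 706 to 942 over the arrays, 69.6% to 73.5% of spots were well above background, and the number of arrays limits the precision. All 12 kidney epithelium markers were above background in all mice. Calb1 (log2 change -1.20), Slc5a2 (-0.57) and Lrp2 (-0.39) were lower in LPR mice, beside 5.47% of all genes represented by 1 probe. Dimmer probes of Slc5a2 and Lrp2 did not pass. The other 9 markers did not pass, with log2 changes of up to 0.69. LPR 2 and LPR 3 were hybridised in the second column of the slide, and the other 4 arrays in the first. In whole kidney RNA, fewer cells of a type and less RNA per cell cannot be told apart.

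Of the 10 ligand genes, 8 were tested by their brightest probe. Cxcl9, Cxcl10, Cxcl13, Cxcl14 and Cxcl16 rose in LPR mice, none fell, and Cxcl1, Cxcl11 and Cxcl12 did not pass the threshold. Among all 25805 genes represented by 1 probe in the same way, 7.12% were higher and 5.47% were lower. Among all tested probes these shares were 6.53% and 6.17%. The median log2 change of the 8 genes was 0.92. Cxcl2 and Cxcl5 were too dim to be tested. In 6 of the 8 genes the groups did not overlap, the 5 that rose and Cxcl11, in which the LPR mice lay lower, beside 37.9% of all tested probes. Among all tested probes, 11.0% lay higher and 26.9% lay lower in every LPR mouse than in any MRL mouse.

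**Figure D1:**
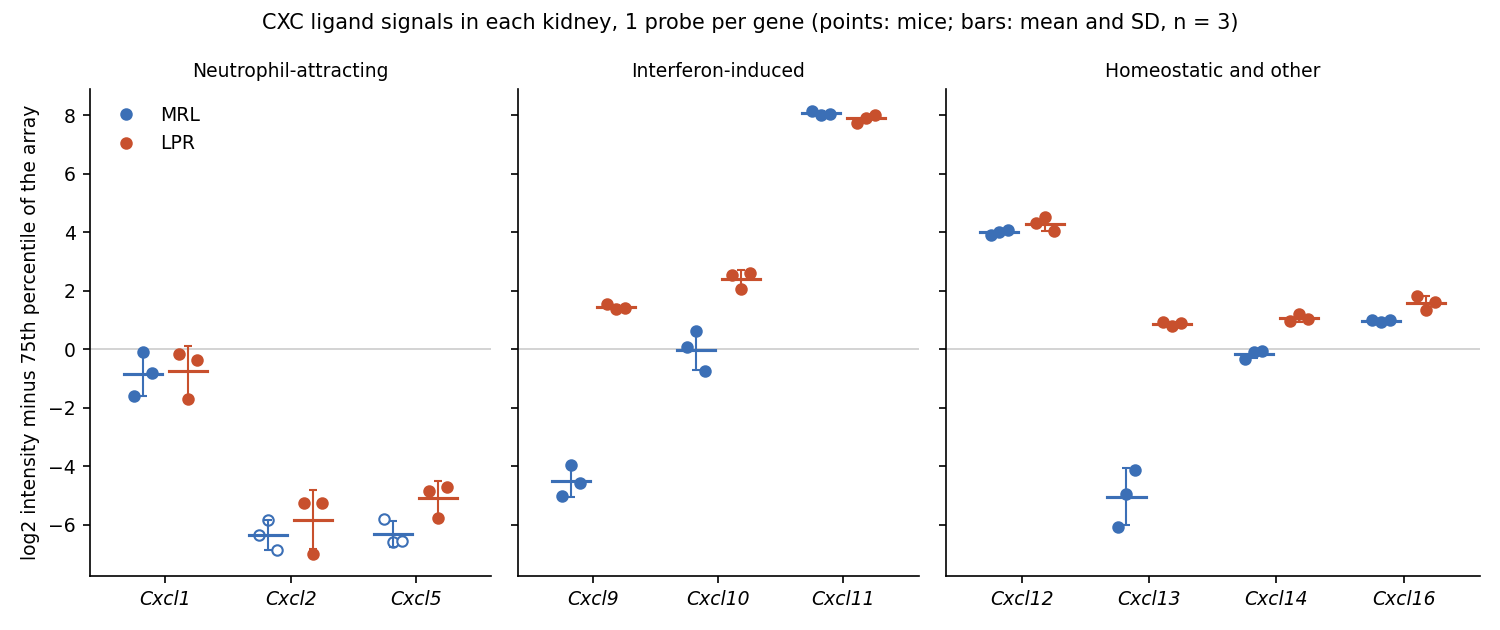
Log2 intensity relative to the 75th percentile of the array in each mouse, for the brightest tested probe of each CXC ligand gene, or its only probe, in MRL (blue) and LPR (orange) mice. Points are mice, bars are the mean and SD (n = 3), and open points mark a group in which no array was well above background. LPR mice lie far above MRL mice for Cxcl9 and Cxcl13, while the groups overlap for Cxcl1, Cxcl2 and Cxcl12. Heights of different genes are not comparable.

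Among the interferon-induced ligands, Cxcl9 (probe A_51_P461665, NM_008599, chr5:92752191-92752250 on mm9, minus strand), which attracts activated T cells, was -5.03, -3.97 and -4.57 in MRL 1, 2 and 3, and 1.54, 1.36 and 1.40 in LPR 1, 2 and 3. All LPR mice lay close together and far above every MRL mouse. The mean rose from -4.52 ± 0.53 to 1.43 ± 0.09 (SD, n = 3 each), a 62.1-fold rise (log2 change 5.96 ± 0.25 SE, limma adjusted p = 2.53e-05). The call was kept under every alternative, where the change ranged from 4.53 to 6.23. By size of change, Cxcl9 ranked 45 from the top of the 25805 genes.

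Cxcl10 encodes another Cxcr3 ligand, and the array holds 2 probes for it. Its brighter probe (A_55_P2016462, NM_021274, chr5:92775781-92775840, minus strand) was 0.09, 0.62 and -0.76 in MRL 1, 2 and 3, and 2.55, 2.07 and 2.62 in LPR 1, 2 and 3. The lowest LPR mouse lay well above the highest MRL mouse. The rise was 5.39-fold (log2 change 2.43 ± 0.34 SE, limma adjusted p = 0.00542). The other probe (A_55_P2016459, ENSMUST00000118006, chr5:92776616-92776675) was -6.79, -6.40 and -7.76 in MRL 1, 2 and 3, and -3.08, -3.34 and -2.69 in LPR 1, 2 and 3. No MRL array was well above background for this probe, so that it entered the test only through the LPR arrays. In LPR mice the signal was at least 7.54-fold higher, a bound that carries no test. The probe passed with a log2 change of 3.95, taken from MRL signal at background (limma adjusted p = 0.000601). With normexp background correction, which here added an offset of 50 to each intensity, its log2 change was 1.14. The bound holds for the background subtraction of the deposited intensities, and how much of the fall came from the offset was not tested. The brighter probe did not pass with the slide column as a block (log2 change 2.57, adjusted p = 0.0595) or within the first column, where LPR 1 was set against the 3 MRL mice (adjusted p = 0.0996), nor with the methods' test on log2 values (adjusted p = 0.0580).

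Cxcl11, the third ligand of Cxcr3, is a transcribed pseudogene in the RefSeq annotation of the reference genome. Its brighter probe (A_55_P2160387, NM_019494, chr5:92788567-92788626, minus strand) was 8.14, 8.01 and 8.02 in MRL 1, 2 and 3, and 7.74, 7.91 and 8.0 in LPR 1, 2 and 3. The LPR values lay just below the MRL values without overlap. The log2 change was -0.17 ± 0.11 (SE, limma adjusted p = 0.345). The other probe (A_55_P2044413, chr5:92788640-92788699) was 2.19, 1.84 and 1.84 in MRL mice and 1.87, 1.56 and 1.81 in LPR mice, and the groups overlapped. Its log2 change was -0.21 ± 0.15 (SE, limma adjusted p = 0.380).

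Both Cxcl11 probes hold letters found in probes of other genes, which is why their shared stretches are shown. The word of 20 bases that the brighter probe shares most widely spans its bases 25 to 44 and occurs in 6 probes of other genes and in 15 promoter windows, on either strand. That of the dimmer probe spans bases 29 to 48 and occurs in 1 probe of another gene. Capitals mark the whole shared word.
Cxcl11 brighter probe: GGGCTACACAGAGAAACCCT
Cxcl11 dimmer probe: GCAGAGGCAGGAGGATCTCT
Over its whole length the brighter probe shared a word of 20 bases with 8 probes of 8 other genes and with 22 promoter windows. At least as many were shared by 0.382% of the 56605 probes on the array, and 5.41% shared any. The other 13 of the 15 ligand probes shared none. How much of the Cxcl11 signal came from other transcripts was not tested.

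Among the homeostatic ligands, Cxcl13 (A_51_P378789, NM_018866, chr5:96389861-96389920, plus strand), which recruits B cells to follicles, was -6.07, -4.96 and -4.13 in MRL 1, 2 and 3, and 0.93, 0.80 and 0.89 in LPR 1, 2 and 3. The MRL mice were spread widely and the LPR mice hardly at all. The rise was 60.8-fold (log2 change 5.93 ± 0.44 SE, limma adjusted p = 0.000254), with 2 of the 3 MRL arrays well above background. The call was kept in all alternatives in which the probe was tested, over changes from 3.94 to 6.39. It was left out where every array had to be above background. The gene ranked 49 of 25805.

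Cxcl12 holds precursor cells and lymphocytes in tissues through Cxcr4. Its brighter probe (A_51_P172502, NM_001012477, chr6:117131227-117131286, plus strand) was 3.91, 4.02 and 4.09 in MRL 1, 2 and 3, and 4.32, 4.53 and 4.03 in LPR 1, 2 and 3. LPR 3 lay among the MRL mice. The log2 change was 0.29 (95% interval -0.06 to 0.64, adjusted p = 0.236 from limma). The other probe (A_55_P1966204, NM_021704, chr6:117125026-117125085), which matches another transcript, was 1.5, 1.86 and 1.87 in MRL mice and 2.27, 2.77 and 2.30 in LPR mice. Here the lowest LPR mouse lay above the highest MRL mouse. The probe rose by 1.63-fold (log2 change 0.70 ± 0.18 SE, limma adjusted p = 0.0475). This call was lost in 12 of 21 alternatives, among them the slide column as a block (log2 change 0.53, adjusted p = 0.287) and the removal of any one mouse (adjusted p from 0.0687 to 0.127).

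Cxcl14 encodes a chemokine made by epithelia and stroma. Its brighter probe (A_51_P209183, NM_019568, chr13:56390078-56390137, minus strand) was -0.34, -0.10 and -0.07 in MRL 1, 2 and 3, and 0.95, 1.20 and 1.04 in LPR 1, 2 and 3. The groups were far apart for their spread. The rise was 2.34-fold (log2 change 1.23 ± 0.12 SE, limma adjusted p = 0.00112), and it did not pass within the first slide column alone (log2 change 1.11, adjusted p = 0.0520). The other probe (A_55_P2927516, XM_006517307, chr13:56397748-56398037) was -4.66, -4.12 and -4.64 in MRL mice and -4.70, -4.85 and -4.55 in LPR mice. The groups overlapped, and the log2 change of -0.23 did not pass (adjusted p = 0.420).

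Cxcl16 encodes a ligand of Cxcr6 that is anchored in the membrane and can be shed by proteases. Its brighter probe (A_52_P99888, NM_023158, chr11:70267780-70267839, minus strand) was 0.99, 0.93 and 1.01 in MRL 1, 2 and 3, and 1.81, 1.33 and 1.61 in LPR 1, 2 and 3. The other (A_51_P374198, chr11:70269481-70269540) was 0.71, 0.90 and 1.07 in MRL mice and 1.58, 1.72 and 1.63 in LPR mice. In both, each LPR mouse lay above each MRL mouse. The brighter probe rose by 1.52-fold (log2 change 0.60 ± 0.14 SE, limma adjusted p = 0.0352) and the other by 1.68-fold (log2 change 0.75 ± 0.12 SE, adjusted p = 0.0105). The call of the brighter probe was lost in 11 of 22 alternatives. These included the slide column as a block (adjusted p = 0.0507), the replicate block (adjusted p = 0.0604) and the removal of any one mouse but LPR 2 (adjusted p from 0.0727 to 0.111). The other probe lost its call with the slide column as a block (log2 change 0.69, adjusted p = 0.107) and within the first column (adjusted p = 0.132).

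The neutrophil-attracting ligands were not called. Cxcl1 (A_55_P2811679, NM_008176, chr5:91322080-91322139, plus strand) was -1.60, -0.09 and -0.81 in MRL 1, 2 and 3, and -0.15, -1.72 and -0.38 in LPR 1, 2 and 3. The mice of each group were spread over more than 1 log2 unit, and LPR 2 was the lowest of all 6. The log2 change was 0.08 ± 0.51 (SE, 95% interval -1.12 to 1.29, limma adjusted p = 0.926), and its sign turned without MRL 1 (-0.30), LPR 1 (-0.21) or LPR 3 (-0.10).

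Cxcl2 (A_51_P217463, NM_009140, chr5:91334534-91334593, plus strand) was -6.36, -5.84 and -6.87 in MRL 1, 2 and 3, and -5.24, -6.99 and -5.26 in LPR 1, 2 and 3. No MRL array and 2 LPR arrays were well above background, and LPR 2 was again the lowest. The bound on the group means was 1.05-fold, but the groups overlapped. Cxcl5 (A_55_P1990032, NM_009141, chr5:91190490-91190549, plus strand) was -5.81, -6.58 and -6.57 in MRL mice and -4.84, -5.78 and -4.70 in LPR mice. The LPR mice lay above the MRL mice, LPR 2 only just, and 2 of the LPR arrays were above background. The bound on the group means of Cxcl5 was 1.77-fold. Without the filter on dim probes neither Cxcl2 (adjusted p = 0.559 from limma) nor Cxcl5 (adjusted p = 0.118) passed.

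**Figure D2:**
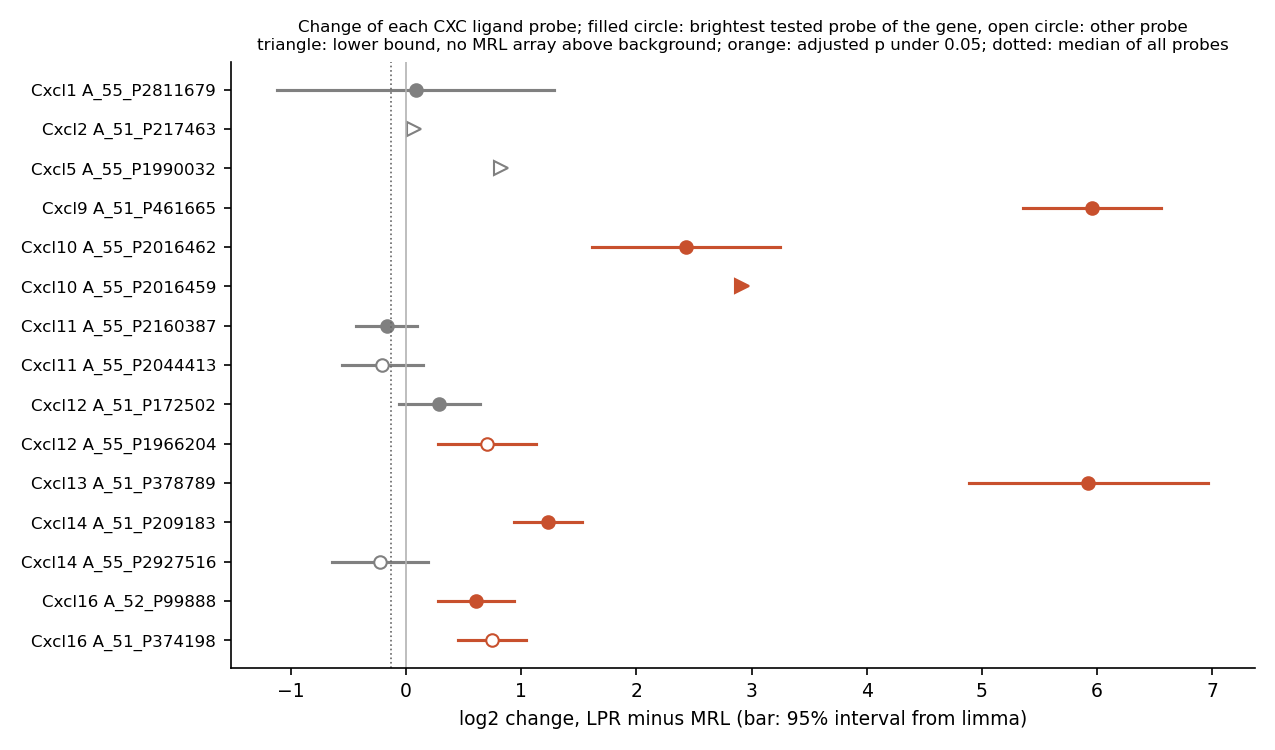
Log2 change (LPR minus MRL) of each of the 15 CXC ligand probes, with the 95% interval from limma as a bar. Filled circles are the brightest tested probe of a gene, open circles its other probe, triangles lower bounds where no MRL array was well above background, orange marks an adjusted p under 0.05, and the dotted line is the median of all tested probes (-0.14). Cxcl9 and Cxcl13 stand near 6, and the interval of Cxcl1 is the widest.

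Of the 5 genes with a pair of tested probes, the 4 whose probes were both above background in MRL mice were compared within each array, as the value of the brighter probe minus that of the dimmer. For Cxcl14 this difference was 4.32, 4.02 and 4.58 in MRL 1, 2 and 3, and 5.65, 6.04 and 5.59 in LPR 1, 2 and 3. The brighter probe gained on the dimmer in every LPR mouse, by 1.45 on average. For Cxcl12 the difference fell by 0.42, again without overlap of the groups, and for Cxcl11 (0.04) and Cxcl16 (-0.14) the groups overlapped. A two-sided exact permutation test gave p = 0.1 for Cxcl12 and Cxcl14, the smallest that 3 against 3 mice allow, with 0.2 after adjustment over the 4 genes. Cxcl10 was left out, since its dimmer probe lay at background in MRL mice.

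Of the 8 receptor genes that these ligands bind or that scavenge them, 7 were tested, 4 rose and none fell, with a median log2 change of 2.06. Over all genes represented by 1 probe, 7.12% rose and 5.47% fell. Cxcr3, the receptor of Cxcl9 and Cxcl10, was -3.20, -3.03 and -2.99 in MRL 1, 2 and 3, and 0.30, 0.72 and 0.54 in LPR 1, 2 and 3. The groups did not overlap, and the log2 change was 3.59 (SE 0.14, limma adjusted p = 1.79e-05). Cxcr5, the Cxcl13 receptor, was not well above background in any MRL mouse, and its rise was at least 11.1-fold. Cxcr6, the Cxcl16 receptor, rose by 5.51-fold (adjusted p = 0.000258).

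Cxcr4, the signalling receptor of Cxcl12, rose by 4.17-fold (log2 change 2.06, adjusted p = 0.000151 from limma), beside a brighter Cxcl12 probe that did not pass. Ackr3, which scavenges Cxcl12, had a log2 change of 0.09 (adjusted p = 0.673). Cxcr2, the receptor of Cxcl1, Cxcl2 and Cxcl5, had a change of 0.46 (adjusted p = 0.228), and the scavenger Ackr1 had one of 0.09 (adjusted p = 0.894). Cxcr1 was not above background on any array.

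**Figure D3:**
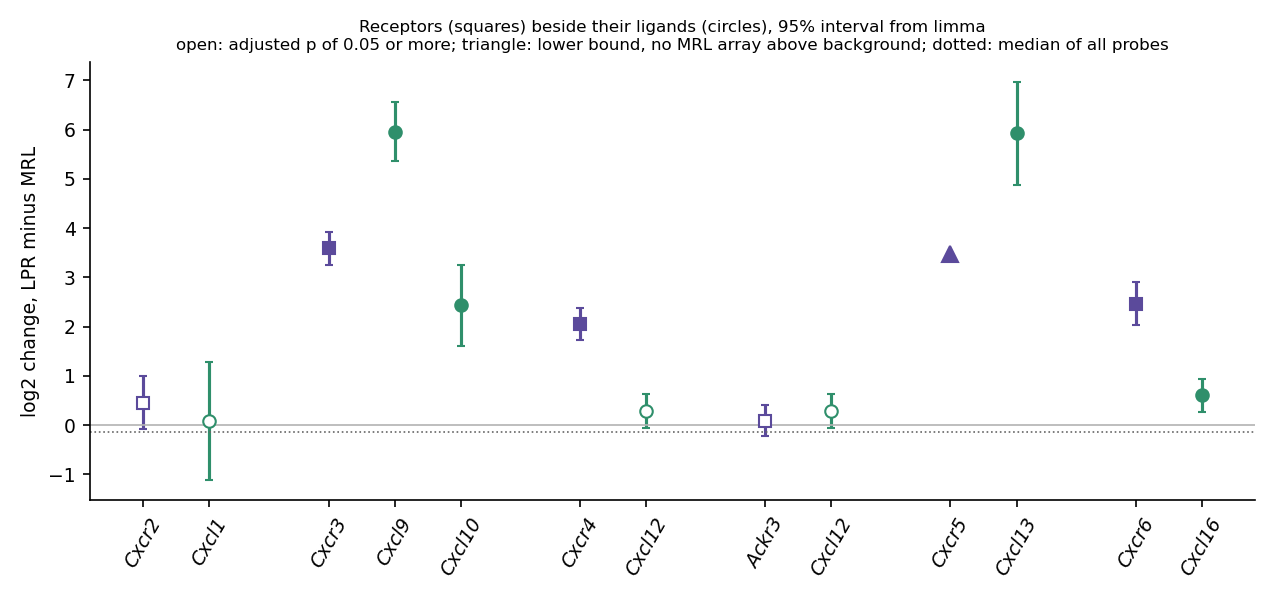
Log2 change (LPR minus MRL) of tested receptors (squares) beside tested ligands (circles), with the 95% interval from limma as bars. Open symbols mark an adjusted p of 0.05 or more. The tested receptor Ackr1 (0.09) and the tested Cxcr3 ligand Cxcl11 (-0.17) are not drawn, and neither passed. The triangle is the lower bound of Cxcr5. Cxcr3, Cxcr5 and Cxcr6 stand above 0 together with Cxcl9, Cxcl10, Cxcl13 and Cxcl16, while Cxcr4 (2.06) stands above 0 beside Cxcl12 (0.29), whose interval spans 0.

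Of 7 other ligand genes of the CXC, CX3C and XC classes, 5 were tested and 4 rose, beside 7.12% of all genes. Pf4, a platelet chemokine, rose by 3.77-fold, Cxcl17, a mucosal chemokine, by 3.17-fold with 1 MRL array above background, and Cx3cl1, the ligand of Cx3cr1, by 1.46-fold, with a dimmer probe that did not pass (log2 change 0.26). Xcl1, made by T cells and natural killer cells, was at least 3.99-fold higher. Ppbp, another platelet chemokine, had a log2 change of 0.70 (adjusted p = 0.421 from limma), and Cxcl3 and Cxcl15 were not tested.

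Of the 10 ligand genes, 7 lie on chromosome 5. Within 250 kb of the Cxcl9, Cxcl10 and Cxcl11 cluster, 26 probes of other genes were tested. Naaa (log2 change 1.14), which encodes a lysosomal amidase, and 1 probe of Scarb2 (0.63), a lysosomal membrane protein, rose. Gm46933 (-0.53) and 1 probe of Art3 (-0.64) fell. The remaining 22 did not pass, among them another Scarb2 probe (0.04) and other Art3 probes (-0.77 and -0.36). Around Cxcl1, Cxcl2 and Cxcl5, 11 probes of other genes were tested, of which that of Pf4 rose, and 3 fell, 2 of Afm and 1 of 5830473C10Rik. For both neighbourhoods, the shares over all tested probes were 6.53% higher and 6.17% lower.

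**Figure D4:**
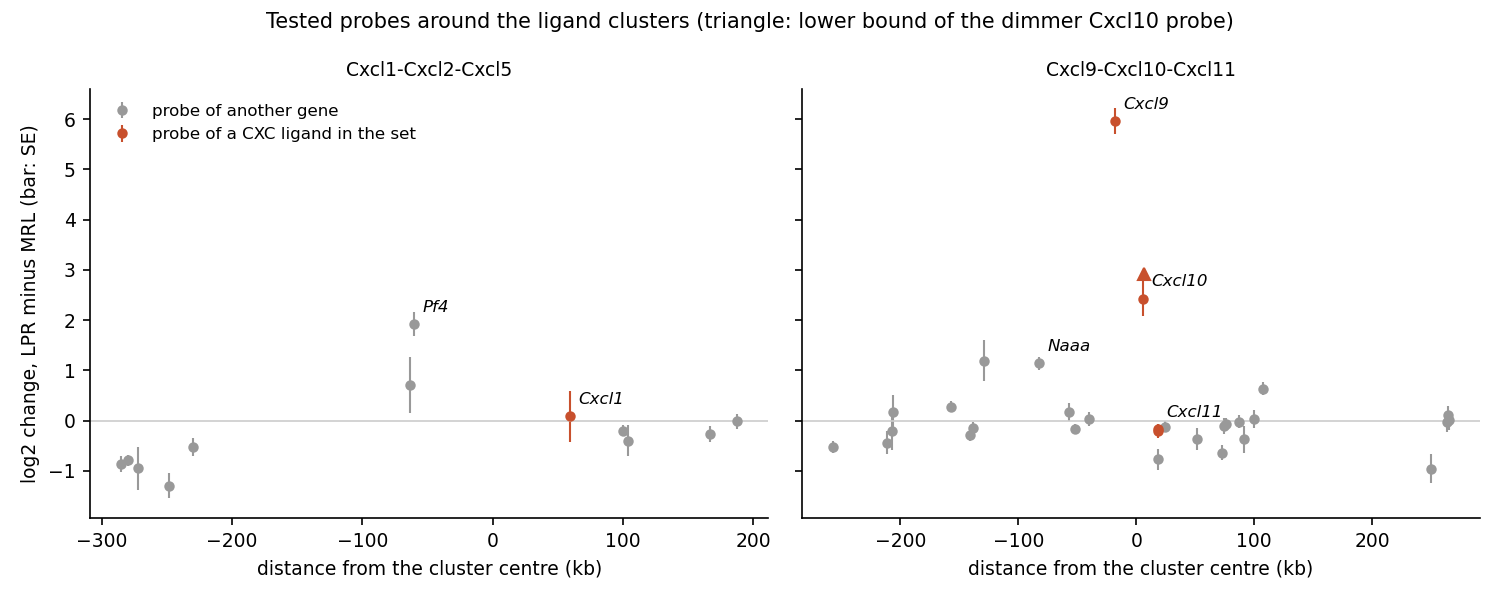
Log2 change (LPR minus MRL) of each tested probe against its distance in kb from the centre of the Cxcl1, Cxcl2 and Cxcl5 cluster (left) and of the Cxcl9, Cxcl10 and Cxcl11 cluster (right). Orange points are probes of the CXC ligands studied and grey points those of other genes, with standard errors as bars and a triangle for the lower bound of the dimmer Cxcl10 probe. Cxcl9 and Cxcl10 stand above all neighbours, while both Cxcl11 probes lie near 0.

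Among 14 inducers and regulators of the interferon-induced ligands, 9 rose and none fell, beside 7.12% and 5.47% of all genes. Ifng, the cytokine that induces Cxcl9 and Cxcl10, was not well above background in any MRL mouse, and its rise was at least 16.4-fold. The transcription factor Irf1 (5.42-fold) rose, as did Socs1 (6.77-fold), a feedback inhibitor. A list of 9 genes held the lymphotoxin system, which acts upstream of Cxcl13, and related lymphoid genes, of which 5 rose. They were led by Ltb (12.1-fold), the chemokine receptor Ccr7 (6.81-fold), its ligand Ccl19 (4.28-fold) and the B cell survival factor Tnfsf13b (4.09-fold). A dimmer Tnfsf13b probe did not pass (log2 change 0.30). The other 4 genes did not pass, the lymphotoxin receptor Ltbr (log2 change -0.009), Map3k14 (0.31), Tnfrsf1a (0.33) and Ccl21a (0.88). A dimmer Tnfrsf1a probe did pass (0.39).

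Of 13 inducers and regulators of the neutrophil-attracting ligands, 11 were tested and 6 rose, beside 7.12% of all genes represented by 1 probe. They included Il1b (4.78-fold) and the NF-kB pathway genes Tnfaip3 (2.31-fold), Nfkbiz (1.81-fold) and Relb (1.71-fold), of which a dimmer probe did not pass (log2 change -0.47). The probes of Tnf disagreed. The brighter one did not pass (log2 change 0.15), and the other rose (log2 change 2.95, limma adjusted p = 7.66e-05), with 1 MRL array above background. Of 5 genes of ligand processing, the metalloproteinases Mmp12 (2.66-fold) and Mmp9 (at least 1.81-fold, no MRL array above background) rose.

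Most T cell markers and most macrophage and dendritic cell markers were also higher in LPR mice. Over all genes represented by 1 probe, 7.12% were higher and 5.47% were lower. The summed levels below add intensities of different probes, so bright probes weigh most and the sums are not amounts of cells. Of 9 T cell markers, 8 rose, led by Cd2 (24.9-fold), and their summed log2 level was 1.57 to 1.79 in MRL mice and 3.88 to 4.11 in LPR mice. Of 10 macrophage and dendritic cell markers, 9 rose, led by Itgax (14.2-fold), with a summed level of 4.03 to 4.30 and of 5.82 to 5.99, of which Csf1r made up 76.3% in MRL mice. Of 8 B cell markers, 7 were tested, 4 rose, among them Cd79b (7.12-fold), and the probes of Ms4a1 disagreed. The brighter one fell (log2 change -0.70, limma adjusted p = 0.0497), and the other rose (log2 change 4.99, limma adjusted p = 0.00281), with 2 of 3 MRL arrays above background. The summed level of the B cell markers was 0.70 to 0.83 and 2.20 to 2.58, of which Cd22 (log2 change -0.03) made up 49.2% in MRL mice.

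Of 11 neutrophil markers, S100a8 (5.58-fold), S100a9 (4.85-fold) and Mpo (1.57-fold) rose and 8 did not pass, beside 7.12% of all genes that rose. The median log2 change was 1.09, and in 8 genes the groups did not overlap, beside 37.9% of all tested probes. The summed level was 5.38 to 5.79 in MRL mice and 5.59 to 5.71 in LPR mice, but Csf3r (log2 change -0.07) made up 93.8% of it in MRL mice. Of 9 markers of follicular dendritic cells and stroma, Col1a1 (5.18-fold), Vim (2.77-fold) and Acta2 (1.52-fold) rose, beside the same 7.12%. The other 6 did not pass, among them Cr2, Fcer2a, Madcam1 and Mfge8 (log2 change -0.02). The summed level was 5.31 to 5.48 in MRL mice and 5.76 to 5.82 in LPR mice, of which Mfge8 made up 66.0% in MRL mice. Of 5 endothelial markers, Kdr fell (log2 change -0.57) and 4 did not pass, beside 5.47% of all genes that fell. The summed level was 4.02 to 4.12 and 3.58 to 3.80, of which Emcn made up 62.9% in MRL mice. The part of these cells in the ligand changes was not tested.

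For each ligand gene that rose, the gene with the most similar profile over the 6 arrays was sought among the tested genes, as the smallest root mean square difference of log2 values centred on their mean. It was Gzmk, a granzyme of cytotoxic lymphocytes, for Cxcl9 (0.252, no MRL array above background for Gzmk), and Hcar2, a metabolite receptor, for Cxcl10 (0.195). For Cxcl13 it was a transcript listed only as ENSMUST00000103379 (0.224, no MRL array above background). Cxcl14 was nearest to the tetraspanin Tspan32 (0.0601) and Cxcl16 to the ion channel Piezo2 (0.0493). With 3 mice in each group, such likeness rests mostly on the difference between the groups.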

How the data were processed

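Total RNA of each kidney was labelled with Cy3 and hybridised to an Agilent mouse array of 60-base probes, 1 array for each of 3 MRL and 3 LPR mice. Per the file headers, the deposited intensities came from Feature Extraction 12.0.3.1, background-subtracted, with probe positions on mm9. The authors also deposited ratios, the same intensities divided by 1 constant per array, used as an alternative. The labels name a column kit and the methods TRIzol for RNA extraction.

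Outlier spots (73 to 90 of 59305 per array) were left out, no spot was saturated, log2 intensities were shifted by the 75th percentile, and spots of 1 probe were averaged. Probes well above background on at least 3 arrays were tested with limma 3.58.1 in R 4.3.3. The brightest tested probe stood for a gene. Where no MRL array was well above background, the bound sets the LPR mean against the higher of the detection limit and the MRL signal. Such a bound is a difference of means and carries no sampling error. Sequences were searched in Python 3.11.15, and exact tests used SciPy 1.17.1. The fit was tested on simulated data. It recovered 45 of 100 simulated log2 changes of 1 and 82 of 100 simulated log2 changes of 2. The members and gene lists were chosen with earlier results of these data known. From other lists, the called genes with the largest changes, at most 4 a list, any gene against its list and some that did not pass were named. Some genes of these lists are not reported here and remain in the counts. Alternatives covered background correction, normalization, filters, slide column, replicate block, the methods' test and each mouse left out.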

Additional observations from a re-analysis of the deposited data

How the results depend on the processing

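The count of 5 higher ligand genes was 5 under normexp, quantile, median and detected-probe scaling, with the authors' ratios, a floor, outlier spots kept, an intensity trend and averaging each gene over its probes. It was 3 with the slide column as a block, 2 within the first slide column and 3 with the methods' test on log2 values (4 on linear values, 5 unadjusted on both scales). It was 4 without the filter on dim probes, 4 where every array had to be above background, and 4 to 5 with any one mouse left out. No ligand or receptor gene was lower under any of these, and the receptor count was 3 to 4. Without one mouse, the change of Cxcl1 ranged from -0.30 to 0.57. It was -0.30 without MRL 1, -0.21 without LPR 1 and -0.10 without LPR 3.

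Over all probes, 2606 were higher and 2462 lower. Higher probes numbered 1458 with the slide column as a block, 1116 within the first column, 1736 with the methods' test on log2 values and 1444 on linear values, and 1958 to 2370 with one mouse left out. Lower probes numbered 4448 with normexp (beside 2540 higher), 1093 with no filter, 463 with the slide column as a block, 315 within the first column, 1386 and 1354 with the methods' test on log2 and linear values, and 760 to 2269 with one mouse left out. The cause of these shifts was not tested. Fewer arrays were fitted within the first column, where LPR 1 was the only LPR array, and without a mouse. No scaling moved the median of all probes by over 0.1.

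The replicate block gave 4 higher ligand genes, 4 higher receptor genes and 2199 higher and 1117 lower probes. Same-numbered mice correlated in their deviations at r = 0.12, 0.02 and 0.01, so the numbers were not taken to pair the mice, and MRL 2 and MRL 3 each correlated better with another number than with their own.

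Cxcl2 and Cxcl5 were limited by signal over background in MRL mice. The Cxcl11 letters repeat in other probes. The log2 changes of Cxcl9 and Cxcl13, both dim in MRL mice, were 4.53 and 3.94 with normexp and its offset of 50. The same setting moved the dimmer Cxcl10 probe from 3.95 to 1.14.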
